A study of Mus musculus with 10 samples.

Results

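Inhibitory receptors and checkpoint ligands are the brakes of the T cell response, and 8 of their genes were followed here through the first hours of restimulation of mouse Th1 cells. The genes are Pdcd1, Ctla4, Lag3, Havcr2, Tigit and Lilrb4a, which encode receptors, and Cd274 and Cd200, which encode ligands. They were taken by symbol from tables of RNA polymerase II peaks near transcription start sites. All 8 were found, among 10419 genes with such a peak in any library, and together they had 55 promoter peaks. Of the 8, 6 had a peak in every library, Cd200 had one in 4 libraries and Havcr2 in 3.

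Binding of polymerase II was read by ChIP-seq, that is immunoprecipitation of crosslinked chromatin followed by sequencing, in 6 libraries of primary Th1 cells from Balb/c DO11.10 mice, a strain whose T cells carry a transgenic receptor for an ovalbumin peptide. The 3 groups of 2 libraries were cells without restimulation (NR) and cells taken 30 min or 2 h after it. Restimulation used plate-bound antibody to CD3 at 5 µg/ml with soluble antibody to CD28 at 2.5 µg/ml. All groups, NR included, had already been primed through CD3 and CD28 with interleukin 12 and with interleukin 4 blocked, expanded in an interleukin 2 analogue and rested for a day without it, so NR cells are previously activated cells and not naive ones. The precipitating antibody was 8WG16, raised against the C-terminal repeat domain of the polymerase. The labels do not say whether the replicates came from separate animals or cultures, so p-values reflect the spread between these 6 libraries alone, and that spread may be technical. Libraries for a histone mark and an input library are not analysed here.

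The receptors in the set restrain T cell activation by different routes, among them phosphatases drawn to the tail, as for PD-1, other tail motifs or partners, as for LAG-3 and TIM-3, and competition for a ligand, as for CTLA-4 and TIGIT. PD-1, CTLA-4, LAG-3, TIM-3 and TIGIT appear on T cells after activation and stay high on chronically stimulated, exhausted cells, and several are targets of cancer immunotherapy. The ligands PD-L1 and CD200 engage inhibitory receptors on other cells, and activated T cells can display both. Polymerase that pauses near the start site gives a narrow peak there, while polymerase travelling through the gene gives signal along the body and past its end.

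The peak lists hold no read counts over whole genes or peaks. They give a signal height at the summit of each promoter peak, which was not compared between libraries here. The value compared was the called promoter DNA of a gene, the summed length in base pairs of the promoter peaks that the authors assigned to it. This length grows with sequencing depth as well as with polymerase, and in a pool of cells, more cells with an occupied gene and more polymerase per cell cannot be told apart. Separate peaks in the gene body or past its end are not part of it. Their place is counted once a peak over the start site runs through them, so the length also grows when peaks merge and is not confined to the promoter. Depth, inferred from the background signal in the lists, was 4.58 and 39.38 M reads in NR cells, 12.85 and 32.12 M reads at 30 min, and 22.07 and 34.97 M reads at 2 h. Median peak widths were 725 and 920 bp in the NR libraries, 692 and 1184.5 bp at 30 min, and 987 and 1229 bp at 2 h, so replicate 1 of NR and of 30 min were the shallow libraries with narrow peaks. Over all genes, 77.3% to 93.1% of the 10419 genes had a peak in a given library. The 8 T cell markers, the 2 CD4 helper markers and the 5 Th1 markers each had a promoter peak in at least 1 library, and none of the 5 B cell, 5 macrophage and 4 dendritic cell markers had one in any. Of other lineages, the NK list had 1 of 3 markers with a peak, at up to 411 bp in all, the regulatory T cell list 1 of 2 without Foxp3, at up to 2041 bp, and the CD8 list 1 of 2 without Cd8a, at up to 576 bp. Of markers of other helper lineages, Gata3, Il4 and Bcl6 each had a peak in at least 1 library, with a summed length of 4301 to 15411 bp. The CD8 and regulatory T cell peaks were called in replicate 2 libraries only. The part of these other markers in the results was not tested.

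Promoter sequence from RefSeq on the mouse build GRCm38.p6 (mm10) was found for 6 of the 8 genes. The 250 bases upstream of the start site are shown for Pdcd1 and Cd274, which passed the test below, and for Havcr2, which had no promoter peak in NR cells. They read 5′ to 3′ in the direction of the gene, and capitals mark matches on either strand to the AP-1 site TGANTCA and to GGAAA, the core of sites for the calcium-regulated factor NFAT.
Pdcd1, chr1:94052554-94052803, minus strand: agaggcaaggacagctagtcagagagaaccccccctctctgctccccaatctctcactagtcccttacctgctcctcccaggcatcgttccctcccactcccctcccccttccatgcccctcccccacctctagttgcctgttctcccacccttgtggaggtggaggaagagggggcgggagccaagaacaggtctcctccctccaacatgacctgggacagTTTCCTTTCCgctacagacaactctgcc
Cd274, chr19:29367188-29367437, plus strand: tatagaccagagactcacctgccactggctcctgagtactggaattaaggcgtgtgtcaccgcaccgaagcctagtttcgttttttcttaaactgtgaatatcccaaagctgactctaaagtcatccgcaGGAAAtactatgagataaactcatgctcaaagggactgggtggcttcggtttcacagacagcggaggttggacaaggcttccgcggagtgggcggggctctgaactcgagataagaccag
Havcr2, chr11:46454681-46454930, plus strand: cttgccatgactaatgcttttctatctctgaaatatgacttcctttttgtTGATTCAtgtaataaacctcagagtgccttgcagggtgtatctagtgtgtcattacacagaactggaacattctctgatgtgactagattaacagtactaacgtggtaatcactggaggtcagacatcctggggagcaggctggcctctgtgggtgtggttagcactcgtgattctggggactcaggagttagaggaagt
The Pdcd1 sequence had a pair of abutting NFAT cores, on the opposite strand, at -28 to -24 and -23 to -19 from the start site. Cd274 had 1 core at -120 to -116, Ctla4 had 1 at -144 to -140, and Tigit had 2, at -110 to -106 and -13 to -9. Havcr2 had no NFAT core and held the only AP-1 match of the 6, TGATTCA at -200 to -194. Cd200 had neither. Among 32536 RefSeq promoters of the same length, 55.7% held the NFAT core and 6.7% the AP-1 site, so the short NFAT match is common. GC content was 60.4% for Pdcd1, 50.4% for Cd274 and between 40% and 44.8% for the other 4, against a median of 52.4% over all promoters. These matches are letters in a window and not measured binding.

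**Figure D1:**
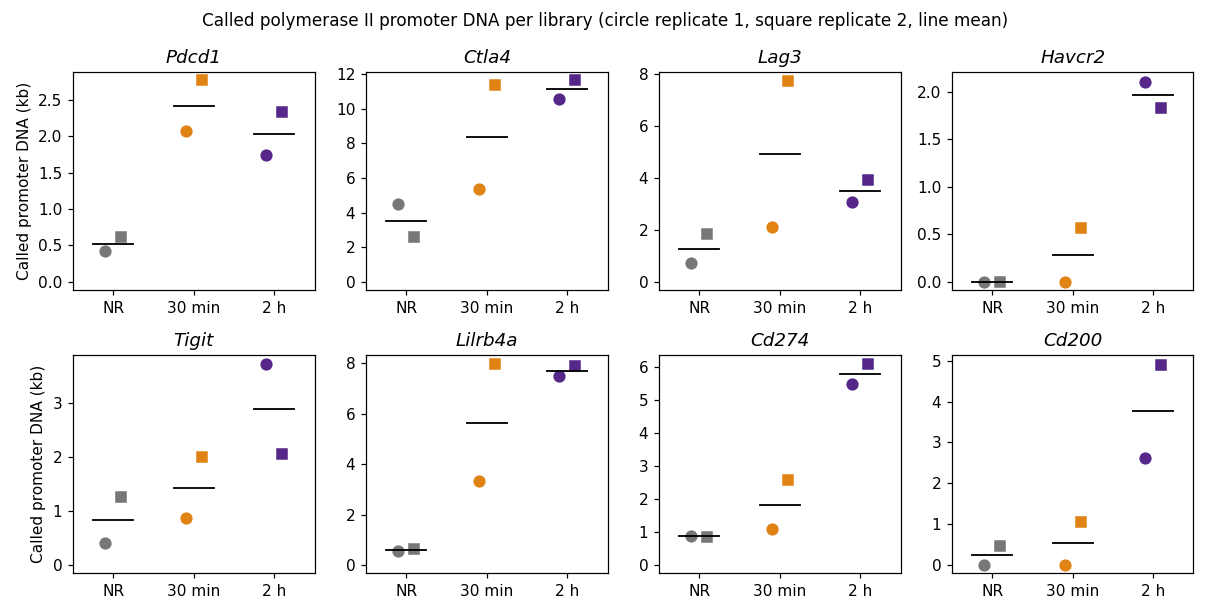
Called polymerase II promoter DNA in kb for each of the 8 genes in NR, 30 min and 2 h libraries, with replicate 1 as a circle, replicate 2 as a square and the group mean as a line. Both 2 h libraries sit above both NR libraries for every gene, and Havcr2 lies at 0 in NR cells.

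The inhibitory receptor gene Lilrb4a had more called promoter DNA than NR cells at both 30 min and 2 h. Over the other ways of processing these were the steadiest calls of the set, but each ended in most fits that left out 1 library. The share of its signal that belongs to the near-identical neighbour Lilr4b is uncertain. Pdcd1 at 30 min and the ligand gene Cd274 at 2 h also passed against NR, but their calls ended under several other ways of processing, and the step of Cd274 between 30 min and 2 h did not pass. Lilrb4a averaged 589 ± 38.2 bp in the NR libraries, 5637.5 ± 3269 bp at 30 min and 7684.5 ± 289 bp at 2 h (SD, n = 2 each). Havcr2, the gene of TIM-3, was listed with no promoter peak in NR cells and had one in both 2 h libraries. Ctla4 already had a peak longer than those of 98.7% and 93.7% of genes in the NR libraries.

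Pdcd1 (chromosome 1, 94038305 to 94052553, minus strand) encodes PD-1, the receptor for PD-L1, which recruits the phosphatase SHP-2. Its called promoter DNA was 416 and 618 bp in the NR libraries, 2069 and 2767 bp at 30 min, and 1742 and 2331 bp at 2 h. Both stimulated groups lay above both NR libraries, and the 30 min and 2 h values overlapped. The log2 change, on the scale of log2(bp + 100) centred per library, was 1.87 ± 0.19 (SE) at 30 min against NR (limma, adjusted p = 0.0452). At 2 h it was 1.32 ± 0.19 against NR and missed the threshold (limma, adjusted p = 0.0746). The 30 min call is close to the threshold, and it passed in 3 of 12 other ways of processing and in 1 of 6 fits that each left out 1 library.

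The start site peak of Pdcd1 widened mainly on the downstream side. The peak over the start site ended 273 and 336 bp into the gene in NR cells, 1602 and 1856 bp at 30 min, and 1492 and 1514 bp at 2 h, while its upstream edge stayed between -142 and -369 bp from the start site. The downstream edges of the 4 restimulated libraries thus lay close together and far from those of NR cells. The peak never covered more than 13.03% of the 14249 bp gene. A separate upstream peak was called in both 30 min libraries and in replicate 2 of 2 h, with summits at -1097, -1151 and -1143 bp, and in neither NR library. Its 229, 541 and 487 bp are part of the called promoter DNA tested above. Further along the body, 4 weak summits from 2271 to 10218 bp were called in 30 min replicate 2, and no other library had a body summit outside the promoter tables. The start site summit moved by no more than 74 bp over the 6 libraries.

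Lilrb4a encodes the inhibitory receptor gp49B, known from mouse mast cells, NK cells and myeloid cells, whose tail binds phosphatases. It lies on the plus strand of chromosome 10, from 51490898 to 51496611. Its called promoter DNA was 562 and 616 bp in the NR libraries, 3326 and 7949 bp at 30 min, and 7480 and 7889 bp at 2 h. Every restimulated library was above both NR libraries, and the shallower 30 min library was intermediate. The log2 change was 2.77 ± 0.20 at 30 min (limma, adjusted p = 0.0129) and 3.02 ± 0.20 at 2 h (limma, adjusted p = 0.00848), both against the same NR libraries. The 30 min call held in 10 of 12 other ways of processing and the 2 h call in 11 of 12, and each held in 2 of the 6 fits without 1 library.

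At Lilrb4a the peak came to cover the whole gene. It spanned 6.53% and 6.69% of the 5714 bp gene in NR cells, 53.4% and 100% at 30 min, and 100% in both 2 h libraries. Where it covered the gene it ran on for 1712 bp past the gene's end in 30 min replicate 2, and for 1327 and 1618 bp at 2 h. Both NR libraries and 30 min replicate 1 had instead a separate summit just past the end, at 5841, 6040 and 5827 bp from the start site. In these libraries signal was thus called at both ends of the gene and not as 1 block between them. The related gene Lilr4b, which ends 5118 bp before Lilrb4a starts in the same orientation, measured 1349 and 1181 bp in the NR libraries, 7686 and 9012 bp at 30 min, and 8803 and 9084 bp at 2 h. Its groups did not overlap with NR either, but its log2 changes missed the threshold at 30 min (2.47, limma, adjusted p = 0.0638) and at 2 h (2.25, limma, adjusted p = 0.0579). These are near-identical copies, and the sources used here do not say how reads matching both were placed, so the share of the signal that belongs to each is uncertain.

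Ctla4 (chromosome 1, 60909025 to 60915832, plus strand) encodes CTLA-4, which binds CD80 and CD86 more tightly than CD28 does. Its called promoter DNA was 4489 and 2558 bp in the NR libraries, 5388 and 11352 bp at 30 min, and 10558 and 11671 bp at 2 h. The groups did not overlap with NR at either time, but the NR values were themselves longer than those of 98.7% and 93.7% of the genes with a peak in those libraries. The log2 change was 1.02 ± 0.40 at 30 min against NR (limma, adjusted p = 0.615) and 1.20 ± 0.40 at 2 h against NR (limma, adjusted p = 0.337), so neither passed. Both NR libraries had a start site peak reaching 3909 and 2228 bp into the gene, a body summit at 4690 and 4362 bp, and a summit past the gene end at 7782 and 7620 bp. In 30 min replicate 2 and both 2 h libraries a single peak covered the whole 6808 bp gene and ran 3665, 3397 and 3688 bp past its end. The start site summit was the most fixed of the set, within 10 bp over 6 libraries.

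Lag3 (chromosome 6, 124904359 to 124911705, minus strand) encodes LAG-3, a relative of CD4 that binds MHC class II. Its called promoter DNA was 707 and 1849 bp in the NR libraries, 2118 and 7741 bp at 30 min, and 3088 and 3930 bp at 2 h. Both restimulated groups lay above NR, and the highest value by far was that of 30 min replicate 2. The log2 change was 1.57 ± 0.44 at 30 min against NR (limma, adjusted p = 0.437) and 1.04 ± 0.44 at 2 h against NR (limma, adjusted p = 0.417). In NR cells 2 separate short promoter peaks were called, 1 over the start site and 1 with its summit 992 or 1405 bp inside the gene. NR replicate 1 also had a summit at 1465 bp outside the promoter tables, whose peak is not in its 707 bp. All 4 restimulated libraries had 1 peak spanning both places, which in 30 min replicate 2 ran from -2361 to 5379 bp around the start site. The span of the neighbouring gene Ptms begins 1970 bp upstream of that site. The peak of 30 min replicate 2 thus reached into Ptms, and the part of its length that belongs to Lag3 is uncertain. A summit outside the promoter tables lay near the end of the 7347 bp gene in every library, between 7208 and 7940 bp from the start site.

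Tigit (chromosome 16, 43648861 to 43664184, minus strand) encodes TIGIT, which competes with the activating receptor CD226 for the poliovirus receptor. Its called promoter DNA was 411 and 1255 bp in the NR libraries, 870 and 2000 bp at 30 min, and 3726 and 2053 bp at 2 h. The 30 min values overlapped with those of NR, and the 2 h lengths lay above all others by a margin as small as that of 2053 bp over 2000 bp. On the centred scale 2 h replicate 2 (0.426) was no higher than 30 min replicate 2 (0.431). The log2 change was 0.62 ± 0.49 at 30 min against NR (limma, adjusted p = 0.773) and 1.31 ± 0.49 at 2 h against NR (limma, adjusted p = 0.376). Body summits outside the promoter tables were called in 30 min replicate 2 and in both 2 h libraries, and all 3 of these had one between 8790 and 9025 bp. Tigit had the least fixed start site summit, spread over 390 bp, because 30 min replicate 1 had its summit at -273 bp.

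**Figure D2:**
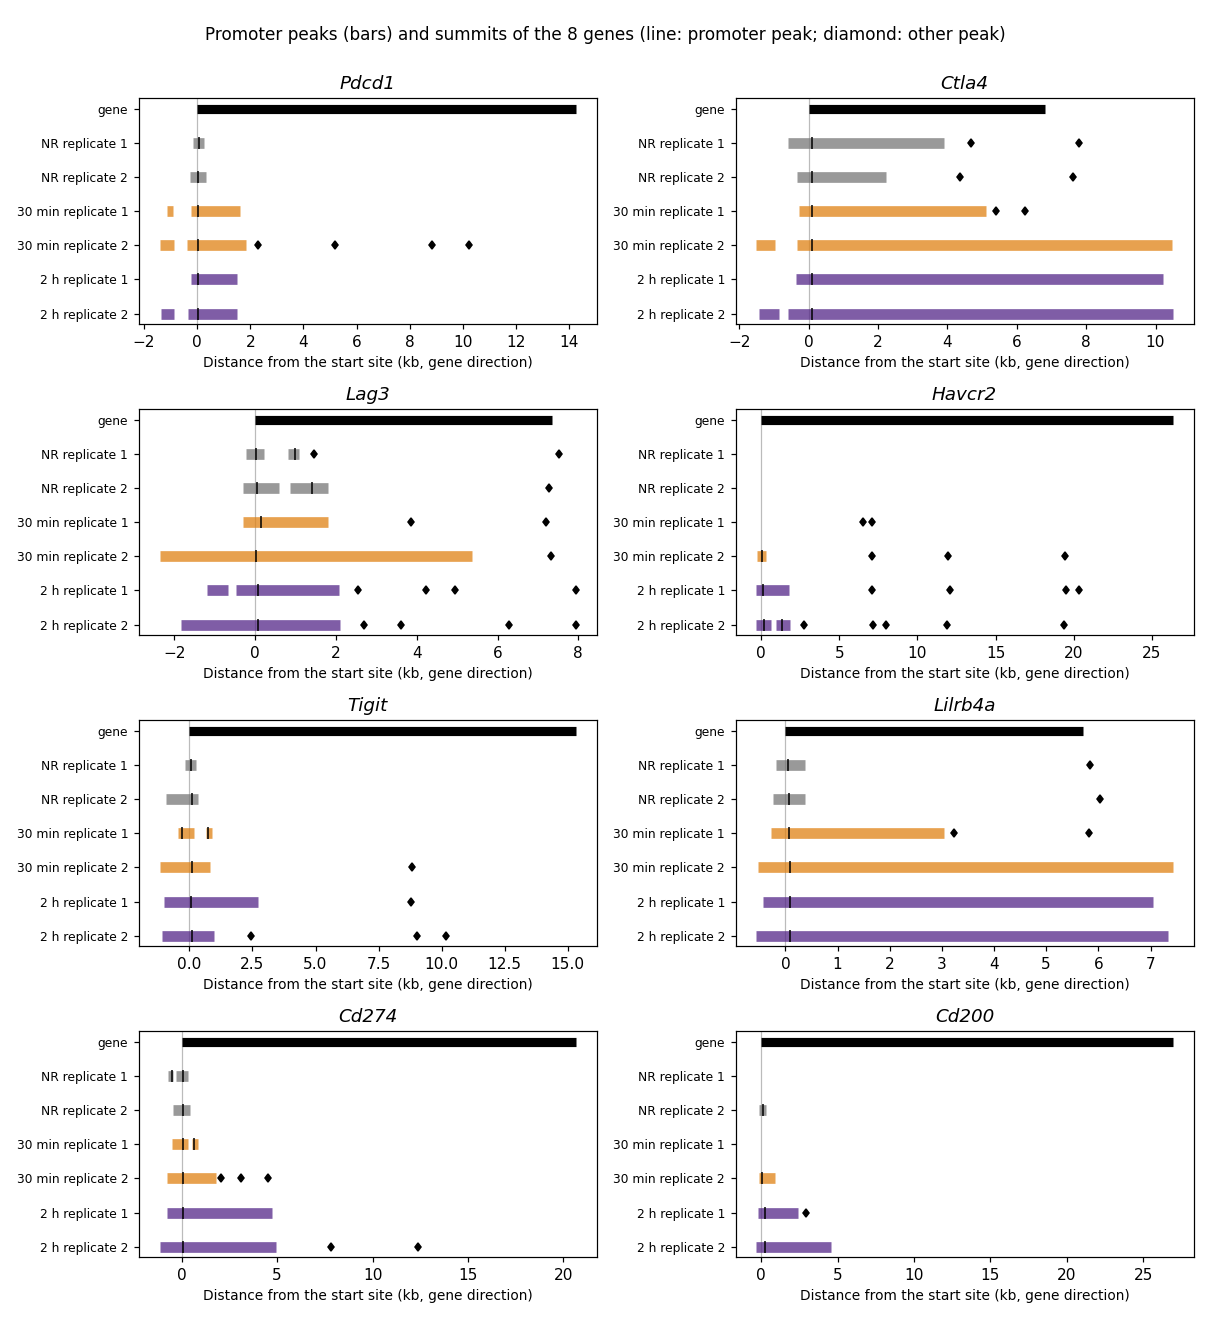
Promoter peaks (bars) and summits (short line in a promoter peak, diamond for any other peak) around each gene in the 6 libraries, by distance in kb from the start site in the direction of the gene, with the gene drawn in black on top. The Lilrb4a and Ctla4 bars cover the whole gene in 30 min replicate 2 and both 2 h libraries, while those of Pdcd1, Tigit and Cd274 reach over no more than the first part of it, and those of Tigit and Cd274 extend upstream as well.

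Cd274 encodes PD-L1, the ligand of PD-1. It lies on the plus strand of chromosome 19, from 29367438 to 29388094. Its called promoter DNA was 885 and 856 bp in the NR libraries, 1100 and 2570 bp at 30 min, and 5495 and 6104 bp at 2 h. The groups rank in the order of time with no overlap between any pair. The log2 change was 2.13 ± 0.20 at 2 h against NR (limma, adjusted p = 0.0282), 0.72 ± 0.20 at 30 min against NR (limma, adjusted p = 0.433) and 1.40 ± 0.20 at 2 h against 30 min (limma, adjusted p = 0.255). The 2 h call against NR held in 8 of 12 other ways of processing and in 2 of the 6 fits without 1 library. The peak over the start site ended 314 and 414 bp into the gene in NR cells, 312 and 1797 bp at 30 min, and 4703 and 4940 bp at 2 h. At 2 h it covered 22.8% and 23.9% of the 20657 bp gene. Its summit stayed within 25 bp over 6 libraries. The fold enrichment of its best peak stood in the top 5.31% to 19.4% of every promoter list, NR included, so it ranked high by that measure before restimulation as well. The span of the neighbouring gene Plgrkt ends 146 bp upstream of the start site. The peak over the start site began between -301 and -1163 bp, so signal of Plgrkt and of Cd274 cannot be told apart there.

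Cd200 encodes the ligand of the inhibitory receptor CD200R, found mostly on myeloid cells. It lies on the minus strand of chromosome 16, from 45382135 to 45409053. It had no promoter peak in NR replicate 1 and 473 bp in NR replicate 2, no peak in 30 min replicate 1 and 1056 bp in 30 min replicate 2, and 2623 and 4892 bp at 2 h. Both libraries without a peak are the shallow ones, and the 2 h values lay above all others. The log2 change was 3.47 ± 1.11 at 2 h against NR (limma, adjusted p = 0.324), 3.12 ± 1.11 at 2 h against 30 min (limma, adjusted p = 0.866) and 0.35 ± 1.11 at 30 min against NR (limma, adjusted p = 0.999). The large SE goes with the presence of a peak in only 1 library of each of the earlier groups. The sizes rest on these libraries at 0: with pseudocounts of 1000 and 10 bp they run from 1.65 to 5.18 at 2 h against NR and from 1.51 to 4.78 at 2 h against 30 min, and over the fits without 1 library from 2.37 to 4.56 and from 1.75 to 4.49.

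Havcr2 encodes TIM-3, a receptor first known from Th1 cells that binds galectin 9 and other ligands. It lies on the plus strand of chromosome 11, from 46454931 to 46481254. It was listed with no promoter peak in both NR libraries and in 30 min replicate 1, and had 569 bp in 30 min replicate 2 and 2103 and 1828 bp at 2 h. Among the 10419 genes, 2.57% had a promoter peak in both 2 h libraries and in neither NR library, and Havcr2 was the only one of the 8 that did. No fold change is given against NR, and the 2 h test against NR missed the threshold (limma, adjusted p = 0.149). With only the 4 libraries of NR and 2 h in the fit the adjusted p was 0.0347 (limma), a value whose spread comes partly from a group where both libraries are at 0. Havcr2 entered that fit, and the fits of all 6 libraries, only through its 2 h libraries, as the filter asked for a peak in 2 or more. Its values at 2 h are thus no support for a change, here or in the counts across the set. With a pseudocount of 1000 bp the adjusted p was 0.0217 (limma), also with both NR libraries at 0, so the call depends on these choices. The 2 h libraries lay above both 30 min libraries by 2.68 ± 0.77 on the log2 scale, which also missed (limma, adjusted p = 0.715). Its size runs from 1.07 to 4.35 with pseudocounts of 1000 and 10 bp, because 30 min replicate 1 is at 0.

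The body of Havcr2 carried polymerase summits that its promoter length does not show. All 4 restimulated libraries had a summit at chr11:46462009-46462058, 7078 to 7127 bp inside the 26324 bp gene, and neither NR library had one anywhere in the gene. At 30 min replicate 1 this body summit was called although no promoter peak was. Its -log10 q, the authors' significance of the peak within its library, was 7.82 and 52.2 at 30 min and 33.1 and 88.5 at 2 h, against 11.7 for the promoter summit of 30 min replicate 2, and 19.6 and 58.4 for those at 2 h. In each of these libraries the body summit therefore had the higher value. Other summits recurred in 30 min replicate 2 and both 2 h libraries, at 11911 to 12080 bp and at 19375 to 19500 bp. By the inferred depths, which are estimates, NR replicate 2 had 39.38 M reads and none of these summits, and 30 min replicate 1 had 12.85 M reads and the first of them. The part of depth in this pattern was not tested. Over the genome, 2.01% of 11067 summit groups outside the promoter tables that occurred in at least 2 libraries (223) were in all 4 restimulated libraries and in neither NR library, when summits within 200 bp were joined. The reverse pattern, both NR libraries and no restimulated one, was held by 200 groups. This summit was singled out after its values were seen, and no other of the 8 genes had one with this pattern.

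**Figure D3:**
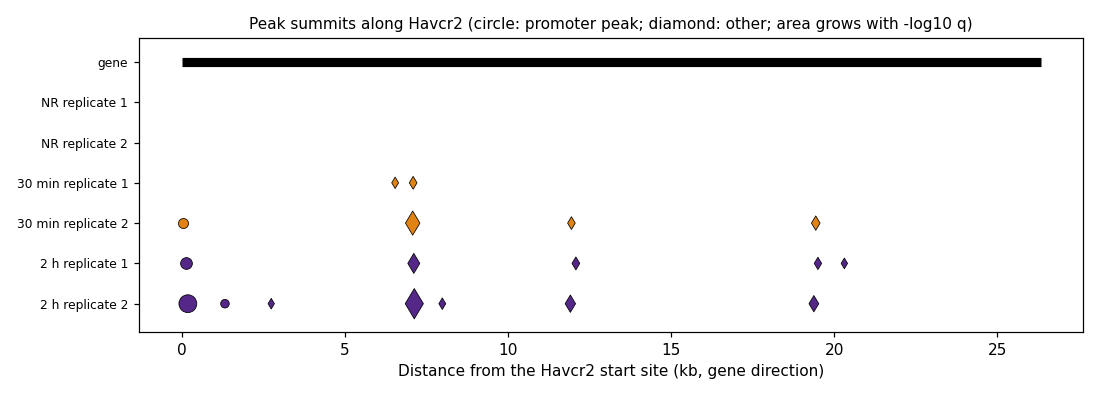
Summits along Havcr2 in the 6 libraries by distance in kb from the start site, with promoter peaks as circles and other peaks as diamonds whose area grows with -log10 q. The diamonds near 7 kb are present in all 4 restimulated libraries, and the NR rows are empty.

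Across the set, 2 of 8 genes passed with longer called DNA at 30 min against NR (Lilrb4a and Pdcd1) and none with shorter, where 0.232% of the 9908 genes tested passed with longer and 0.0101% with shorter. That balance over all genes rests on 30 min replicate 2, since 52 genes passed with longer and 175 with shorter without it, in place of 23 and 1. At 2 h against NR, 2 of 8 passed with longer (Lilrb4a and Cd274) and none with shorter, against 0.373% and 0.0606% of all genes. Between 2 h and 30 min limma called 0 of 8, and 0% of all genes, while 4 of the 8 and 513 of the 9908 had an unadjusted p under 0.05. Without 30 min replicate 2 it still called 0 of the 8, but 181 genes in all passed with longer and 25 with shorter. Unadjusted, 5 of the 8 were under 0.05 at 30 min against NR and 7 at 2 h against NR, next to 793 and 1249 of all genes. The median log2 change of the 8 was 1.117 for 30 min against NR, 1.72 for 2 h against NR and 0.47 between 2 h and 30 min, and the medians over all genes were -0.04, -0.03 and -0.01. The first and second of these comparisons share the NR libraries. The medians include Havcr2, whose values against NR rest on libraries at 0 and the pseudocount. The median of 1.117 lies midway between Ctla4 and Havcr2, so it rests on them directly. Havcr2 is also among the 7 and the 4 counted by unadjusted p.

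Counted without a test, both libraries of 30 min were above both of NR for 5 of the 8 genes, compared with 11.5% of all genes, and below for none, compared with 1.16%. Both libraries of 2 h were above both of NR for 8 of 8, compared with 52.3% (2.09% of all genes lay below), so that separation was common in the whole table. Between 2 h and 30 min the count was 4 of 8, compared with 17% of all genes, and none lay below, compared with 0.727%. These counts use lengths as called. On the centred log2 scale, looked at after seeing the data, they were 6 of 8 for 30 min against NR, compared with 18.8% of all genes, 8 of 8 for 2 h against NR, compared with 22.3%, and 3 of 8 between 2 h and 30 min (Havcr2, Cd274 and Cd200), compared with 17.4%. The 6 include Havcr2, although it has no peak in 30 min replicate 1 or in NR. Both sets of counts at 2 h include it too, and it passed the filter only through its 2 h libraries. Depth differed between the libraries compared in these counts. With the log2 of inferred depth as a term in the fit, Lilrb4a passed at 30 min (limma, adjusted p = 0.0345) and at 2 h (limma, adjusted p = 0.0334) against NR, while Pdcd1 at 30 min (limma, adjusted p = 0.0826) and Cd274 at 2 h (limma, adjusted p = 0.0541) did not. Within replicate 1, 6 of the 8 genes were longer at 30 min than in NR, compared with 37.9% of all genes. Within replicate 2, 8 of 8 were longer, compared with 87.2%. For 2 h against NR, 8 of 8 were longer within each replicate number, compared with 81% and 85.8%. Between 2 h and 30 min, 7 of 8 were longer within replicate 1 and 5 of 8 within replicate 2, compared with 87.3% and 54.9%, which are near the shares in all genes.

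**Figure D4:**
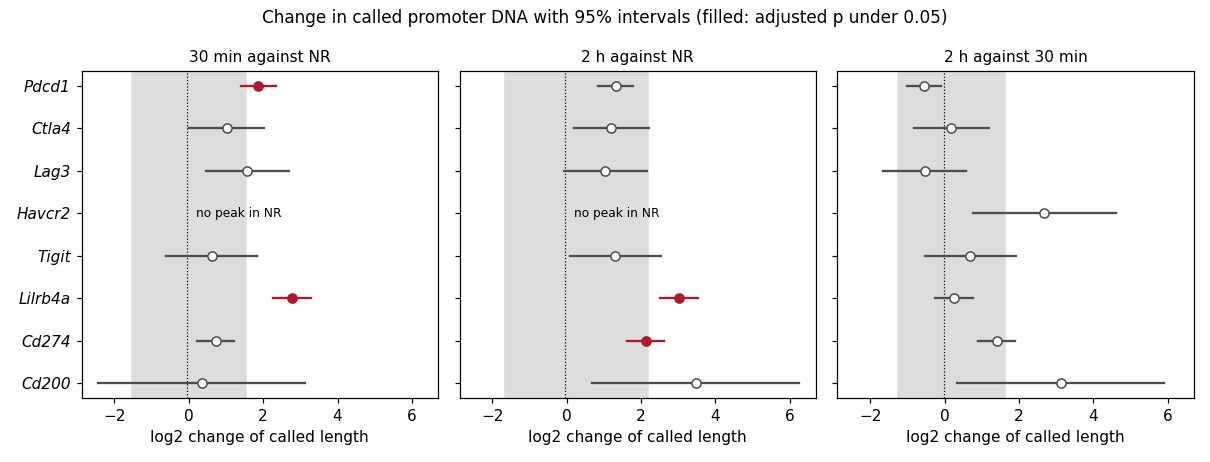
Log2 change of called promoter DNA with 95% intervals from limma for the 8 genes in the 3 comparisons, filled where the adjusted p was under 0.05, over a grey band holding the middle 95% of all 9908 genes and a dotted line at their median. Havcr2 is not drawn against NR, where it has no peak. Of the genes drawn, Lilrb4a, Pdcd1 and Lag3 lie above the band for 30 min against NR, Lilrb4a and Cd200 for 2 h against NR, and Havcr2 and Cd200 for 2 h against 30 min.

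The 8 genes fall into several time courses by their values, given as a description. Pdcd1 and Lag3 had their highest mean at 30 min, with log2 changes of -0.55 ± 0.19 and -0.54 ± 0.44 at 2 h against 30 min, neither of which passed (limma, adjusted p = 0.861 and 0.866). For Lag3 this rests on 30 min replicate 2, without which the change was -0.02. Cd274, Cd200, Havcr2 and Tigit had their highest mean at 2 h. Ctla4 and Lilrb4a also had their highest mean at 2 h, and were close to their 2 h values in 30 min replicate 2 and lower in 30 min replicate 1.

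For each gene the 3 genes with the most similar course were taken by Euclidean distance between centred log2 values over the 6 libraries, after subtracting each gene's own mean over them, among 9208 candidates. For Pdcd1 these were Eif1, Jarid2 and Tbc1d2b, at 0.37 to 0.51. For Cd274 they were Sik3, Abtb2 and Pofut1, at 0.24 to 0.54, and for Lag3 Ovca2, Sema3b and Hivep1, at 0.44 to 0.49. For Lilrb4a they were Pou2af1, Fhl2 and Irf4, at 0.42 to 0.78. For Ctla4 they were Rpl10a, Erdr1 and Larp1, at 0.36 to 0.54, and for Havcr2 Crabp2, Akap7 and Ak4, at 0.38 to 0.62. The matches were looser for Tigit, with Ahcyl1, Cdyl and Spry1 at 0.66 to 0.75, and for Cd200, with Gemin8, Gad2 and Zeb2 at 0.86 to 1.25. The 6 libraries differ in depth, and depth was not taken out of these distances.

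Other genes of the pathway were read from 6 lists. Of 11 genes tested from a list drawn up for other inhibitory receptors, none passed at 30 min or at 2 h against NR, and their median log2 changes were 0.07 and 0.93. Whether each gene on it, Lilr4b among them, encodes an inhibitory receptor was not checked. Beside Lilr4b, the largest separated changes on that list were those of Vsir, the gene of the checkpoint receptor VISTA, at 30 min (1.41, limma, adjusted p = 0.433) and of Cd5, a brake on T cell receptor signals, at 2 h (1.93, limma, adjusted p = 0.260). Of 8 other ligand genes none passed at either time, and the medians were -0.25 and -0.44. Cd47, which gives the signal that limits phagocytosis, had 0.44 at 30 min (limma, adjusted p = 0.729) and 0.35 at 2 h (limma, adjusted p = 0.632), and Cd48, a ligand of CD244, had -0.37 at 2 h (limma, adjusted p = 0.503) although its uncentred lengths were slightly above those of NR. None of the 3 genes of adenosine-producing enzymes passed, with medians of -0.41 and -1.34. The second median is the value of 1 gene (SE 1.23), with 271 and 680 bp in NR cells and 0 and 771 bp at 2 h.

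Among 16 genes that signal below these receptors, 1 passed, at 2 h. Cblb, a ubiquitin ligase that raises the threshold for T cell activation, measured 863 and 1614 bp in the NR libraries, 1982 and 3607 bp at 30 min, and 7913 and 10164 bp at 2 h, a log2 change of 2.34 ± 0.20 at 2 h against NR (limma, adjusted p = 0.0208). Its 30 min change missed the threshold (0.95, limma, adjusted p = 0.257), and there the phosphatase gene Ptpn22 had 2.22 (limma, adjusted p = 0.126). The medians of the list were -0.05 at 30 min and 0.34 at 2 h. Among 18 genes of factors known to act on checkpoint genes, 1 passed at each time. Nr4a3, an orphan nuclear receptor induced by T cell receptor signals, measured 479 and 628 bp in the NR libraries, 14671 and 27123 bp at 30 min, and 13614 and 14902 bp at 2 h. Its log2 changes were 4.79 ± 0.18 at 30 min (limma, adjusted p = 0.00133) and 3.99 ± 0.18 at 2 h (limma, adjusted p = 0.00283), larger than those of any of the 8 genes with a peak in NR cells. The medians of that list were 0.77 and 0.60. Of 4 activating receptors that share ligands or family, none passed, with medians of 0.25 and 0.50. Cd4 had 1.07 (limma, adjusted p = 0.465) and Cd28 had 0.91 (limma, adjusted p = 0.377) at 2 h. Between 2 h and 30 min no gene of any of the 6 lists passed.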

How the data were processed

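Each library has its own deposited peak lists, on mm10. The submitters' processing notes list BWA 0.7.13, Picard 1.119 and MACS2 2.1.0 without saying in which role. Per the file headers, each deposited promoter table gives peak positions, the pileup signal at the summit, a fold enrichment ratio, and -log10 p and -log10 q. Values of the tables show that they hold only peaks within 1000 bp of a start site, each assigned by the authors to 1 gene. The deposited summit lists give all peaks with their -log10 q. Fold enrichment and -log10 q are the authors' values and only describe peaks within a list. Lists of different length make ranks incomparable.

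Called promoter bp per gene were summed, taken as log2(bp + 100), and centred per library on the median of the 7410 genes with a peak in all 6. The 9908 genes that had a peak in 2 or more libraries were tested with limma 3.58.1 in R 4.3.3, group as the only term, with Benjamini-Hochberg adjustment over all of them and a threshold of 0.05. The fit was tested on simulated data. With 2 libraries against 2, an exact permutation test cannot go below p = 0.333, so none was used. Depth was inferred from the lowest background pileup, the smallest peak width, the pileup value of 1 read and a genome of 1870000000 bp, and is an estimate. The value of 1 read was 1.0 in the replicate 1 libraries. It was fitted as 0.5771 in NR, 0.7075 in 30 min and 0.65 in 2 h replicate 2, so the depths of these libraries rest on that fit as well.

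The 8 genes and the pathway lists were chosen with earlier results of these data known. All 8 are named. From each list every gene past the threshold is named, and otherwise, for each comparison with NR, the 2 of largest change among those with no overlap between groups. Alternatives were other centring, pseudocounts, filters, q thresholds, equal list lengths, assignment by position, summit counts, fewer libraries, a replicate block, a depth term and leaving out each library.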

Additional observations from a re-analysis of the deposited data

How the results depend on the processing

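The number of the 8 genes called at 30 min against NR was 2, and it was 0 without centring and by number of summits, and 1 with a pseudocount of 10 bp, a -log10 q of at least 5, equal list lengths, assignment by position, only the 4 libraries compared, and a term for inferred depth. At 2 h against NR it was 2, and it was 1 without centring and with the depth term, 0 by number of summits, 3 with a pseudocount of 1000 bp (Havcr2 added, limma, adjusted p = 0.0217) and 4 with only the 4 libraries compared. Havcr2, 1 of these 3 and of these 4, passed the filter in both settings only through its 2 h libraries. Leaving out 1 library gave 0 to 2 genes at 30 min and 0 to 4 at 2 h, with 0 whenever that library was one of NR or 2 h. At 2 h against 30 min every setting tried gave 0. Lilrb4a had adjusted p from 0.0193 to 0.117 at 30 min and from 0.00815 to 0.106 at 2 h in these fits, and passed only without 1 of the 30 min libraries. Cd274 at 2 h had 0.0200 to 0.212 and passed in the same 2 fits. Pdcd1 at 30 min had 0.0283 to 0.262 and passed only without 30 min replicate 2. Without 30 min replicate 1 or 2, Pdcd1 (log2 change 1.33 and 1.32) and Havcr2 were added at 2 h against NR. In these fits too Havcr2 passed the filter only through its 2 h libraries, so its calls are no support for a change.

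With the replicate block 1 gene, Lilrb4a, was called at 30 min (limma, adjusted p = 0.0427) and 1, again Lilrb4a, at 2 h (limma, adjusted p = 0.0306), while Pdcd1 had 0.0835 and Cd274 0.0562. The differences between replicates 1 and 2 correlated between groups over 9908 genes (Pearson r 0.44 for 30 min and NR, 0.27 for 2 h and NR, 0.41 for 2 h and 30 min), but with only 2 numbers these are not shown to pair samples.

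Counted by number of summits, which falls where long peaks merge, the direction reversed for Ctla4 (-0.50), Lag3 (-0.37) and Lilrb4a (-0.085) at 30 min against NR, for Ctla4 (-1.0) and Lilrb4a (-0.59) at 2 h against NR, and for Ctla4 (-0.50), Lag3 (0.79), Lilrb4a (-0.50) and Cd274 (-0.45) at 2 h against 30 min. At 30 min against NR it also reversed for Tigit with a -log10 q of at least 5 (-1.04), and for Cd200 with the depth term (-0.20), without NR replicate 1 (-0.75) and without 30 min replicate 2 (-1.03, in a range of up to 1.72 over the fits without 1 library). For Havcr2 the value was -0.17 with equal list lengths, but no called length differed there. The short peak of 30 min replicate 2 was no longer kept, so NR and 30 min were all at 0 and the value comes from the centring. Apart from this centring, the cause of these reversals was not tested, and that holds for the merging of peaks as well. Without centring the median of all genes shifted (log2) by 0.12 for 30 min against NR, 0.45 for 2 h against NR and 0.30 for 2 h against 30 min. Over all genes, calls of longer DNA were 23 at 30 min and 37 at 2 h against NR, and ranged with the setting from 4 to 61 and from 3 to 148. Calls of shorter DNA were 1 and 6, and ranged from 0 to 175 and from 0 to 41. Without 30 min replicate 2 there were 52 longer and 175 shorter at 30 min against NR, 145 and 41 at 2 h against NR, and 181 and 25 at 2 h against 30 min, where all 6 libraries gave 0 and 0. Havcr2 has no 30 min value with only the 4 libraries, where it has a peak in 1. Short or shallow peaks may be missed in the NR and 30 min libraries of low depth.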
